A study of Homo sapiens with 6 samples.

Results

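Collagen genes were taken as the protein-coding rows of the deposited gene table whose symbol has the form COL, a type number, A and a chain number. There were 36 such rows among 27009. Of these, 9 encode chains of fibrillar collagens, 6 encode the type IV chains of basement membranes, and 21 encode other collagens (beaded-filament, fibril-associated, anchoring, transmembrane and related types). The rule used names and no measured value.

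The libraries are labelled as Hep3B, a human liver cancer line. In all cells the endogenous PD-L1 gene (CD274) had been knocked out. The 3 vector libraries carried a lentiviral vector and the 3 libraries labelled nPD-L1 carried, in the same kind of vector, a PD-L1 with a mutated motif, expressed to place PD-L1 in the nucleus. Whether the knockout cells are 1 clone is not given in the sources used here. The construct used the pCDH-CMV-Puro backbone, so a CMV promoter drove it and puromycin selected the infected cells. The labels do not say whether replicates are separate cultures, so p-values measure the spread between these libraries. CD274, the targeted gene, was at 28.3, 38.4 and 47.8 scaled reads in vector replicates 1 to 3. It was at 16.8, 19.2 and 30.9 under the nPD-L1 label. The groups overlapped, and CD274 RNA was not higher in the libraries labelled nPD-L1, whose cells carried the PD-L1 construct. The log2 fold change was -0.76 (SE 0.34, limma adjusted p = 0.338, exact permutation p = 0.2). Directions below are therefore between libraries as labelled.

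Collagens are trimers of chains that wind into a triple helix. Fibrillar collagens such as type I form the banded fibers of connective tissue, while type IV collagen forms the sheet-like network of basement membranes. Type VI collagen forms beaded microfilaments around cells, and type VII forms the fibrils that anchor an epithelium to its stroma. In liver, hepatic stellate cells and myofibroblasts are the known main source of fibrillar collagen during fibrosis. Type IV chains are encoded in head-to-head pairs, in which neighboring genes are read in opposite directions from a shared promoter region.

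The shared promoter regions are shown because the type IV pairs give a comparison of chains with a common start region. Sequences are from RefSeq (GRCh38.p14). Each covers the 250 bases before the annotated start and the first 30 bases after it, 5′ to 3′ on the gene's own strand. The table held a window for 28 of the 36 collagen genes (19 of the 22 tested). Capitals mark the GC box (GGGCGG) and the SMAD box (CAGAC) on either strand; the AP-1 site (TGAGTCA, or TGACTCA on the other strand) was also searched and had no match in the 4 windows. COL4A1 and COL4A2 lie at chr13:110307128-110307407 (minus strand) and chr13:110307034-110307313 (plus strand).
COL4A1: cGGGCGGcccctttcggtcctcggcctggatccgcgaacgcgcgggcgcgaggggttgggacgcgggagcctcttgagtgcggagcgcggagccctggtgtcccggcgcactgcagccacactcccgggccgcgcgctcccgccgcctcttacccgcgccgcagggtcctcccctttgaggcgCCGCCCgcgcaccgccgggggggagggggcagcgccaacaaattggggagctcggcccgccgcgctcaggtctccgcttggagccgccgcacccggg
COL4A2: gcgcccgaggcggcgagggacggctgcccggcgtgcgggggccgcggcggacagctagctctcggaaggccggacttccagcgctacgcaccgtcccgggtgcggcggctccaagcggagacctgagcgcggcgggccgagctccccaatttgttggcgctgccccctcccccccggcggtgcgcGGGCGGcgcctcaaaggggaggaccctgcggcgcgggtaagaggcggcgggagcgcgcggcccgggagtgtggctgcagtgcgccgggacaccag
COL4A3 and COL4A4 lie at chr2:227164374-227164653 (plus strand) and chr2:227164176-227164455 (minus strand).
COL4A3: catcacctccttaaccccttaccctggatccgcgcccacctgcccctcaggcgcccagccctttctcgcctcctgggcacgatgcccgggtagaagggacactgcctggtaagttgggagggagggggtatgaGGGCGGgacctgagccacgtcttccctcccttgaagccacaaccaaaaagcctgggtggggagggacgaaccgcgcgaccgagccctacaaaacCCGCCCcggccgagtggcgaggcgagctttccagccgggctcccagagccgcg
COL4A4: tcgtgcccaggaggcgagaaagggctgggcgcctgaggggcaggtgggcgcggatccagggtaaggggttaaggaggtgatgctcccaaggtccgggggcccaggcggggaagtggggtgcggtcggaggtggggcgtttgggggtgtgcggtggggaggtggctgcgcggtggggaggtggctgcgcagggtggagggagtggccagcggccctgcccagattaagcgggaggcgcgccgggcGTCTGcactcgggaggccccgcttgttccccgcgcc
The COL4A1 and COL4A2 starts were 127 bases apart and their windows shared 186 bases. The COL4A3 and COL4A4 starts were 419 bases apart, with 82 bases shared. The GC box matched 2 times in the COL4A1 window, 1 time in COL4A2, 2 times in COL4A3 and not in COL4A4. The SMAD box matched 1 time, in COL4A4. Of 35116 promoter windows of the same 280-base length, 44.1% held the GC box, 42.7% the SMAD box and 4.73% the AP-1 site. These matches describe letters and not binding.

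Values are scaled reads, the depositors' gene counts divided by a factor for each library, and add up to 18082164 to 19682128 per library. The 10 most abundant genes took 6.43% to 7.43% of them. A gene was tested where at least 3 libraries reached 10 scaled reads, which left 15076 genes, and called at an adjusted p under 0.05 in limma on log2(value + 1). That fold change understates the change of low genes. The RNA had little of a hepatocyte program. ALB, the gene of serum albumin, was at 0 to 2.02 scaled reads, and APOA1, APOA2, APOB, TF and TTR did not exceed 2.89, while FGB, a fibrinogen chain, was at 962 to 1540.5. HNF4A, a liver transcription factor, was at 6.24 to 19.2 in vector and 33.8 to 51.6 in the libraries labelled nPD-L1 (adjusted p = 0.0232). Of 10 listed liver genes, 9 had a row and 6 stayed under 10 in every library. AFP, the alpha-fetoprotein gene, was not analysed here. SERPINA1, also on the list, was at 7.91 to 41.4 in vector and 16.8 to 20.3 in the libraries labelled nPD-L1. The near absence of albumin and apolipoprotein RNA goes against a line of hepatocyte type, while FGB, HNF4A and SERPINA1 RNA was present. Hep3B is used here as the labels give it.

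Which collagens do these cells express? Of the 36 genes, 22 passed the filter: 4 of 9 fibrillar, all 6 type IV and 12 of 21 other collagens. The remaining 14 did not exceed 13.5 scaled reads in any library, and 7 of them were at 0 in at least 4 libraries. They were COL2A1, COL5A3, COL11A1, COL11A2 and COL24A1 among the fibrillar chains, and COL6A6, COL9A1, COL9A2, COL9A3, COL14A1, COL20A1, COL22A1, COL23A1 and COL28A1 among the others. The cartilage chains COL2A1 and COL11A1 were near 0. COL1A2 and COL3A1, the partner chain of COL1A1 and the type III chain, were not analysed here, and neither were COL6A5, COL8A1, COL8A2, COL10A1, COL19A1 and COL25A1.

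The collagen RNA was mainly that of basement membrane, beaded-filament and anchoring types. Per kilobase of gene length and over all 6 libraries, COL7A1, the anchoring fibril chain, was at 339.5 scaled reads, the type VI chain COL6A1 at 335, and the type IV chains COL4A2 at 313 and COL4A1 at 215. They were followed by COL5A2, a fibrillar chain that co-assembles with type I, at 205, COL6A2 at 187 and COL18A1, the source of endostatin, at 179. The libraries ranged from 219 to 430.0 for COL7A1, from 287 to 415 for COL6A1 and from 226 to 378 for COL4A2, so the order of these genes lay within their spread. COL4A1 (135 to 247), COL5A2 (189 to 221), COL6A2 (157 to 211) and COL18A1 (125 to 216.5) also overlapped among themselves. Each of them lay below COL6A1 and below COL4A2 in every library. The next gene, COL5A1, at 53.2 per kilobase (38.1 to 67.0), lay below all 7 genes named before it in every library. The 6 genes of highest level per kilobase held 78.8% of the collagen reads. COL1A1 was number 15 in this order in vector and number 10 in the libraries labelled nPD-L1.

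**Figure D1:**
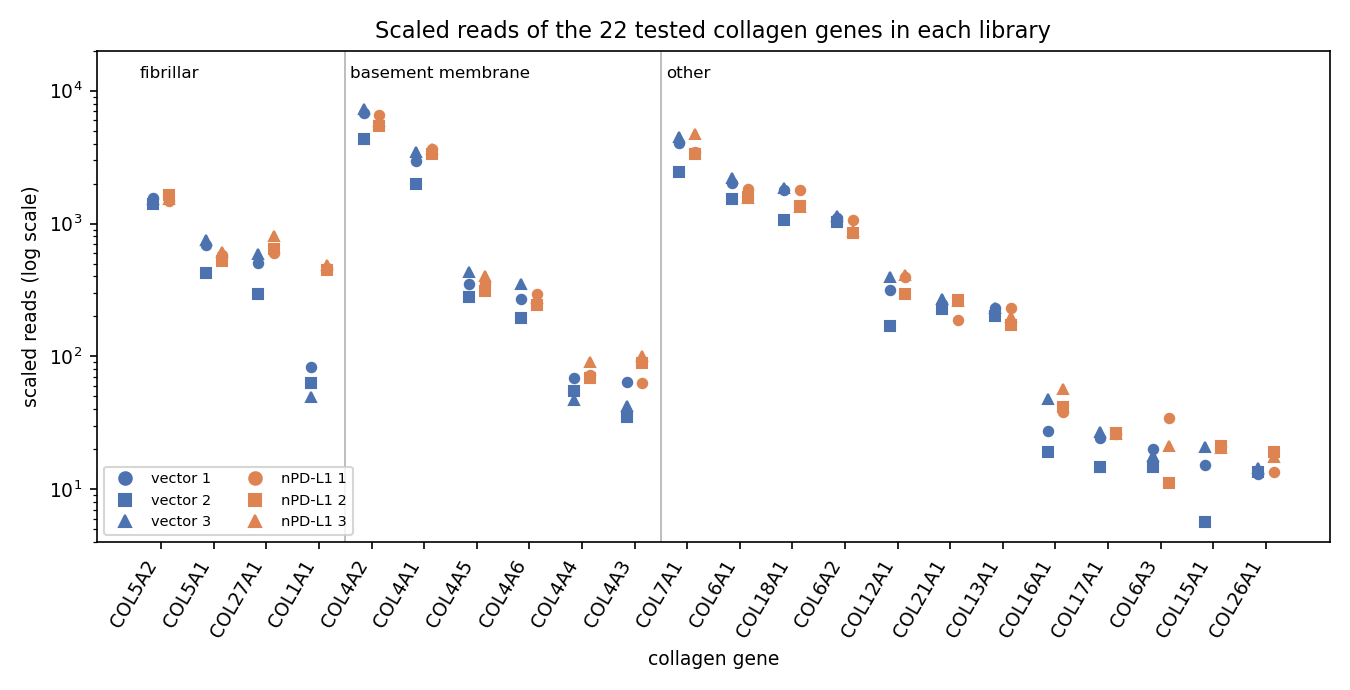
Scaled reads (log scale) of the 22 tested collagen genes, by class, with 1 point per library (blue, vector; orange, labelled nPD-L1; marker shape, replicate number). COL1A1 is the gene with separated groups far apart (49.9 to 82.8 against 445 to 487), and the blue squares of vector replicate 2 are often the lowest point.

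Vector replicate 2 stood apart for collagens. It was the lowest vector library for 19 of the 22 tested collagen genes (86.4%), against 41.4% of all tested genes, and the lowest of all 6 libraries for 15 of them (68.2%, against 28.0%). The cause was not tested. Collagen genes were also long, with a median gene length of 9275.5 bases against 4654 for all tested genes. Class medians and the fold changes that moved most are therefore also given without vector replicate 2, and the fit with the length trend removed is given for medians. Where vector replicate 2 was the lowest vector library, leaving it out had to lower the fold change.

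Collagen as a share of all scaled reads was 0.125%, 0.0806% and 0.138% in vector replicates 1 to 3. It was 0.124%, 0.111% and 0.13% under the nPD-L1 label (0.115% ± 0.0303 against 0.122% ± 0.00954, SD, n = 3 each). The groups overlapped. Type IV genes made up 0.0517% ± 0.0148 in vector and 0.0556% ± 0.0043 in the libraries labelled nPD-L1. Fibrillar genes made up 0.0142% ± 0.00266 and 0.0178% ± 0.00122, without overlap. Without COL1A1 the fibrillar share was 0.0109% to 0.0159% and 0.0143% to 0.0165%, and the groups overlapped. Other collagens made up 0.0488% ± 0.0129 and 0.0481% ± 0.00505.

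**Figure D2:**
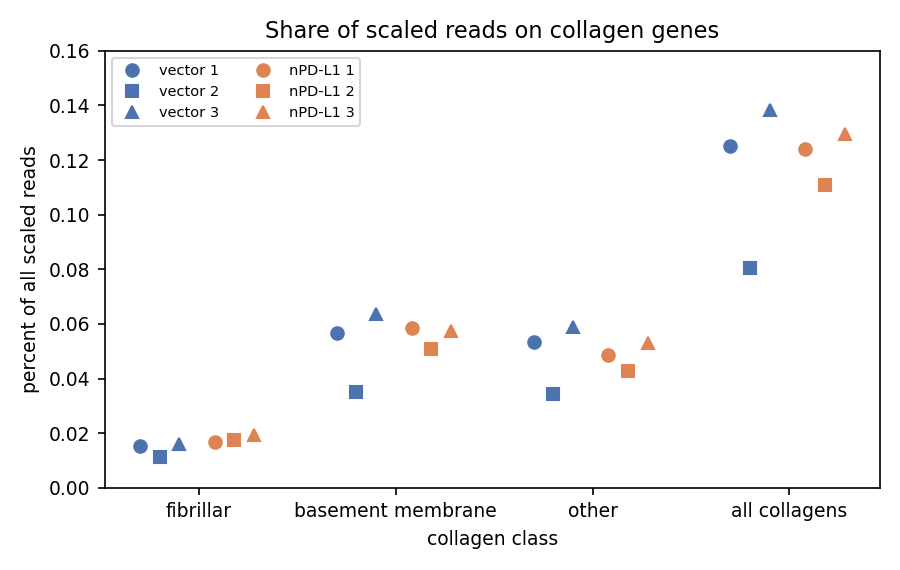
Percent of all scaled reads on each collagen class and on all collagens, with 1 point per library (blue, vector; orange, labelled nPD-L1; marker shape, replicate number). Vector replicate 2 is the lowest point in each class, and only the fibrillar points of the libraries labelled nPD-L1 (0.0168% to 0.0192%) all lie above those of vector (0.0112% to 0.0161%), which was not so once COL1A1 was left out.

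Which collagens differed between the libraries labelled nPD-L1 and vector? One gene, COL1A1, rose and 0 fell. COL1A1 encodes the main chain of type I collagen, the most abundant collagen of the body. Among all tested genes 4.04% were called higher and 0.922% lower, so 1 of 22 collagens (4.55%) is close to the background and is a result about COL1A1, not about collagens. COL1A1 was also the only one past a 2-fold change, which 2.03% of all tested genes passed upward and 0.451% downward. At an unadjusted p under 0.05 there were 3 of 22 collagens, all higher and 0 lower, against a background of 9.53% higher and 4.71% lower. On the 4 libraries with recovered reads, edgeR and DESeq2 each called COL1A1 higher and 0 collagens lower. Without vector replicate 2, COL1A1 was again the only collagen called higher, and COL6A1 was called lower.

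**Figure D3:**
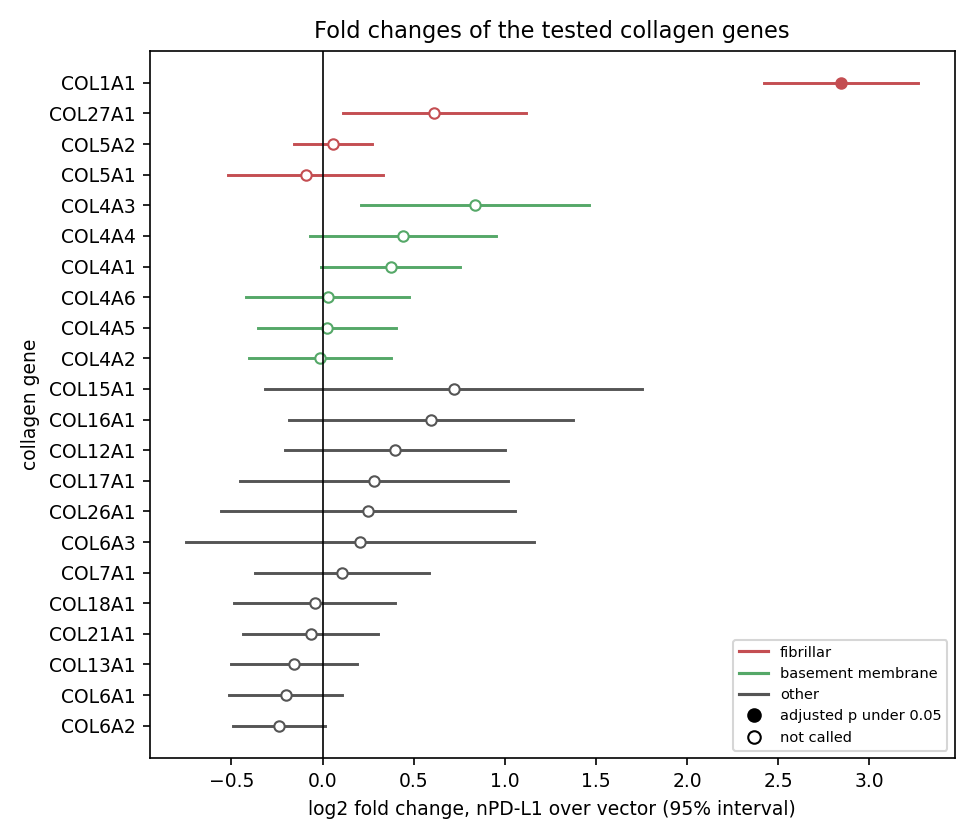
Log2 fold change (libraries labelled nPD-L1 over vector) with its 95% interval for the 22 tested collagen genes, colored by class; filled points passed an adjusted p of 0.05. COL1A1, at 2.84, is the only filled point, and the next highest are COL4A3 (0.83) and COL15A1 (0.72).

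Among fibrillar chains, COL1A1 (chr17:50183289-50201632, hg38, minus strand) was at 82.8, 63.2 and 49.9 scaled reads in vector replicates 1 to 3 and at 465, 445 and 487 in the libraries labelled nPD-L1 replicates 1 to 3. The groups lay far apart, with no vector library near any of the others. The means were 65.3 ± 16.5 and 466 ± 21.1 (SD, n = 3 each), a linear ratio of 7.13. The log2 fold change was 2.84 (SE 0.19, 95% interval 2.42 to 3.27, limma adjusted p = 7.99e-06), and 53 tested genes had a higher one. A 2-sided exact permutation test gave p = 0.1, the smallest that 3 against 3 libraries allow. Even so, COL1A1 stayed a minor collagen: per kilobase it was at 6.65 scaled reads in vector and 47.4 in the libraries labelled nPD-L1, against 201 and 209 for COL5A2.

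COL27A1 (chr9:114155560-114312511), a fibrillar chain of developing cartilage, was at 504, 295 and 588 scaled reads in vector and at 604, 639 and 809 under the nPD-L1 label. The groups did not overlap, but the difference was not called (log2 fold change 0.61, SE 0.23, adjusted p = 0.219). It was 0.32 without vector replicate 2 (adjusted p = 0.221), and it was called at 0.82 without vector replicate 3 (adjusted p = 0.0405) and with the replicate number as a block (adjusted p = 0.0153). The block with the length trend removed gave 0.48 and no call (adjusted p = 0.0705).

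The type V chains, which regulate the diameter of type I fibrils, were not called. COL5A2 was at 1556, 1407 and 1536 scaled reads in vector and at 1487, 1649 and 1541 in the libraries labelled nPD-L1 (log2 fold change 0.06, 95% interval -0.16 to 0.27). COL5A1 was at 692, 426 and 749, and at 579, 519 and 607 (log2 fold change -0.09, 95% interval -0.52 to 0.33; -0.34 without vector replicate 2, adjusted p = 0.0916). Both overlapped between groups, and the intervals leave out a change of the size seen for COL1A1. The median log2 fold change of the 4 tested fibrillar genes was 0.33 and that of all tested genes -0.02. It was 0.16 without vector replicate 2 and 0.24 with the length trend removed.

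Of the 6 type IV genes 0 were called (limma, edgeR and DESeq2), and 1, COL4A3, had an unadjusted p under 0.05. COL4A1 (chr13:110148963-110307233), of the chain pair found in nearly all basement membranes, was at 2981, 1991 and 3438 scaled reads in vector and at 3617, 3359 and 3645.5 in the libraries labelled nPD-L1 (log2 fold change 0.37, SE 0.17, adjusted p = 0.364). It was 0.14 without vector replicate 2. Its partner COL4A2 (chr13:110305812-110513209) was at 6749.5, 4351.5 and 7293, and at 6566, 5415 and 5874 (log2 fold change -0.01, 95% interval -0.40 to 0.38). For both genes the groups overlapped. COL4A1 did so through vector replicate 3, which lay above the library labelled nPD-L1 replicate 2.

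The minor type IV chains belong to specialized basement membranes such as that of the kidney glomerulus. COL4A3 was at 64.6, 35.0 and 42.6 scaled reads in vector and at 63.0, 89.0 and 100.3 in the libraries labelled nPD-L1 (log2 fold change 0.83, SE 0.28, unadjusted p = 0.0137, adjusted p = 0.164). COL4A4 was at 68.6, 55.3 and 46.8, and at 72.3, 68.8 and 90.7 (log2 fold change 0.44, SE 0.23, adjusted p = 0.448). They were 0.64 and 0.43 without vector replicate 2. COL4A4 did not overlap between groups, and COL4A3 did, by vector replicate 1 and the library labelled nPD-L1 replicate 1. An antisense gene over COL4A3, AC097662.1, had means of 11.3 scaled reads in vector and 13.5 in the libraries labelled nPD-L1. COL4A5 was at 351, 282 and 432, and at 358, 313 and 403 (log2 fold change 0.02). COL4A6 was at 269.5, 194 and 352, and at 292, 244 and 274 (log2 fold change 0.03). These X-linked genes were nearly level between groups, with signs that turned under other settings. The type IV median was 0.20, 0.01 without vector replicate 2 and 0.09 with the length trend removed.

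Do partner chains keep their ratio? A ratio within a library is free of its scaling factor. COL4A1 over COL4A2 was 0.442, 0.458 and 0.471 in vector replicates 1 to 3. It was 0.551, 0.62 and 0.621 under the nPD-L1 label. The groups did not overlap, and vector replicate 2, although low in both genes, had a ratio between those of the other vector libraries. The means were 0.457 ± 0.0149 and 0.597 ± 0.0402 (SD, n = 3 each), a log2 difference of 0.38 with a pooled SD of 0.08. The 2-sided exact permutation p was 0.1 and was 0.5 adjusted over the 5 pairs compared; 3 against 3 libraries cannot give less than 0.1. The pairs were compared with earlier values of these genes known. The gene spans of COL4A1 and COL4A2, introns included, overlap by 1422 bases. The labelled library kit does not mark strand, so reads in any exon shared there could not be told apart. Whether exons are shared was not tested. A ratio cannot show which chain differed.

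The other pairs overlapped between groups. COL4A3 over COL4A4 was 0.828 ± 0.17 in vector and 1.09 ± 0.211 in the libraries labelled nPD-L1 (log2 difference 0.40, exact permutation p = 0.3). COL4A5 over COL4A6 was 1.33 ± 0.115 and 1.33 ± 0.13 (exact permutation p = 0.9). COL5A1 over COL5A2 was 0.412 ± 0.097 and 0.366 ± 0.0444 (exact permutation p = 0.6), and COL6A1 over COL6A2 was 1.76 ± 0.242 and 1.79 ± 0.0711 (exact permutation p = 0.9). Adjusted over the 5 pairs, these p-values were 0.75 to 0.9.

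**Figure D4:**
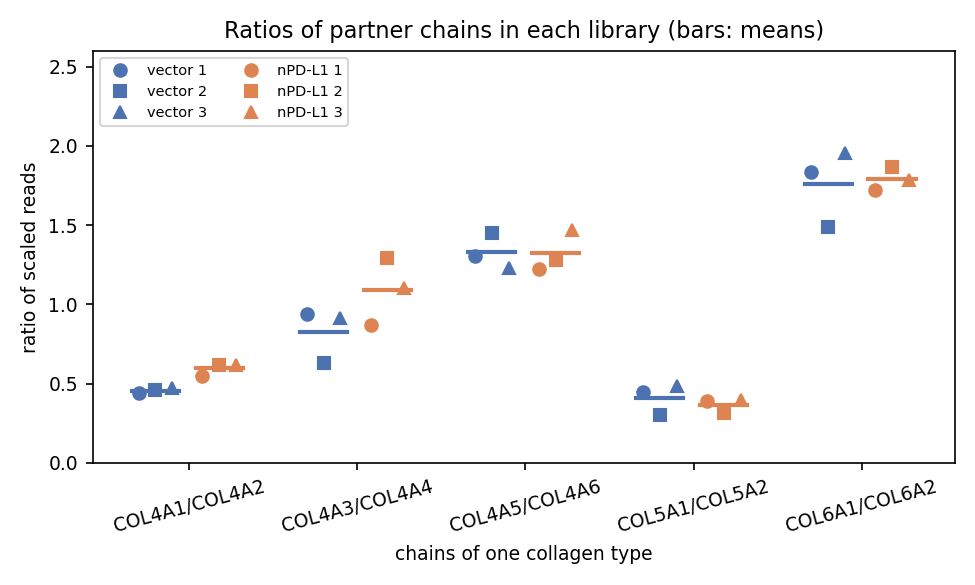
Ratio of scaled reads of partner chains in each library (blue, vector; orange, labelled nPD-L1; marker shape, replicate number; bars, means). COL4A1/COL4A2 is the pair whose groups separate (0.442 to 0.471 against 0.551 to 0.621).

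Among other collagens 0 of 12 tested genes were called (limma, edgeR and DESeq2), and 0 had an unadjusted p under 0.05. COL6A1 (chr21:45981737-46005050) was at 2027, 1535 and 2217 scaled reads in vector and at 1829, 1577 and 1568 in the libraries labelled nPD-L1 (log2 fold change -0.20, SE 0.14, adjusted p = 0.593). Without vector replicate 2, its lowest vector library, COL6A1 was called lower (log2 fold change -0.36, adjusted p = 0.0359). It was called in 1 of 20 alternatives, and leaving out its lowest vector library had to lower the fold change. COL6A2 (chr21:46098097-46132849) was at 1104, 1031 and 1134, and at 1061, 846 and 878 (log2 fold change -0.24, 95% interval -0.49 to 0.015, adjusted p = 0.392). Both type VI chains overlapped between groups. COL6A3, their partner in the trimer, was at 11.1 to 34.5 in all libraries (log2 fold change 0.21), or 1.01 per kilobase against 335 for COL6A1 and 187 for COL6A2.

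COL7A1 (chr3:48564073-48595267) was at 4039, 2429 and 4510.3 scaled reads in vector and at 3454, 3361 and 4761 in the libraries labelled nPD-L1 (log2 fold change 0.11, 95% interval -0.37 to 0.58). The groups overlapped over most of their range. The fibril-associated COL12A1 (168 to 396 against 294 to 409) had a log2 fold change of 0.40, COL16A1 (19.2 to 47.8 against 37.8 to 56.9) of 0.59 and COL21A1 (226 to 268 against 188 to 266) of -0.06. The basement membrane zone collagens COL15A1 (5.65 to 20.8 against 20.3 to 21.2) and COL18A1 (1068 to 1846 against 1323.5 to 1787.5) had 0.72 and -0.04. The transmembrane collagens COL13A1 (201 to 232 against 173 to 229) and COL17A1 (14.7 to 27.0 against 26.0 to 26.3) had -0.16 and 0.28, and COL26A1 (13.1 to 14.5 against 13.4 to 19.2) had 0.25. Without vector replicate 2 the fold changes were 0.040 for COL12A1, 0.30 for COL16A1, 0.22 for COL15A1, 0.029 for COL17A1, -0.16 for COL7A1 and -0.30 for COL18A1, with 0 called. All overlapped between groups, with adjusted p-values of 0.522 to 0.945 for the genes of this paragraph. COL18A1 shares 20149 bases of gene span, introns included, with SLC19A1 on the opposite strand. SLC19A1 was itself at 919 to 1343.

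The median log2 fold change of the 12 other collagens was 0.16, -0.05 without vector replicate 2 and 0.02 with the length trend removed. Over all 22 genes, 15 were above 0 (68.2%, against 46.7% of all tested genes). The median was 0.16. Without vector replicate 2, 12 of 22 collagens and 7099 of 15076 genes were above 0, and the collagen median was 0.02. Groups did not overlap for 3 of 22 (13.6%), all higher: COL1A1, COL27A1 and COL4A4. Among all tested genes 12.0% did so higher and 8.54% lower. Of the genes under the filter COL9A3, a cartilage chain, was at 0, 2.26 and 0 in vector and at 2.52, 10.1 and 8.68 in the libraries labelled nPD-L1. It was singled out after its values were seen.

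Did the machinery of collagen assembly move with COL1A1? A list of 51 genes that make, cross-link, bind or cleave collagen had 49 rows and 38 tested genes, of which 3 rose (7.89%, against 4.04% of all tested genes) and 0 fell (limma; 0.922% of all tested genes). At an unadjusted p under 0.05 there were 7 higher (18.4%, against 9.53%) and 0 lower (against 4.71%). Without vector replicate 2 there were 5 called higher. On 4 libraries, edgeR and DESeq2 each called 1 higher and 0 lower. The median log2 fold change was -0.03 (0.03 without vector replicate 2), against -0.02 for all tested genes. The 12 tested genes of prolyl and lysyl hydroxylation, which stabilizes the helix and prepares it for cross-links, included 0 called genes (0 also at an unadjusted p under 0.05), and 11 of 12 were below 0 (lowest -0.26), against 53.3% of all tested genes. It was 6 of 12 without vector replicate 2. The gene above 0 was PLOD2, a lysyl hydroxylase, at 4801 to 6545 scaled reads in vector and 6087 to 6728.5 in the libraries labelled nPD-L1 (log2 fold change 0.25, adjusted p = 0.428). P4HB, the beta subunit of prolyl 4-hydroxylase, was at 11304 to 13707 scaled reads in vector and 11381 to 13063 in the libraries labelled nPD-L1. Of 8 tested genes of glycosylation, folding and export, 0 were called. COLGALT1, which adds galactose to hydroxylysine, was at 3108 to 3219.8 and at 2809 to 3138, and SERPINH1, the collagen chaperone HSP47, had a log2 fold change of -0.21 (adjusted p = 0.435).

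The called genes lay outside these steps. FURIN, a protease that activates many proproteins, procollagen-processing enzymes among them, was at 1273, 1457 and 1285.5 scaled reads in vector and at 5301, 5295 and 4864 in the libraries labelled nPD-L1 (log2 fold change 1.95, SE 0.10, adjusted p = 1.25e-06). Its result was known when the list was made. LOXL4, a lysyl oxidase of cross-linking, was at 3.03, 2.26 and 9.35, and at 35.3, 25.3 and 26.0 (log2 fold change 2.52, SE 0.51, adjusted p = 0.016). MRC2, the endocytic receptor that takes up cleaved collagen, was at 1464, 1420 and 1336.5, and at 1814, 1887 and 1784 (log2 fold change 0.38, SE 0.09, adjusted p = 0.0423). For all 3 genes the groups did not overlap. The LOXL4 call was lost without vector replicate 1 (adjusted p = 0.0652), and without the libraries labelled nPD-L1 replicate 1 (0.112), 2 (0.0571) or 3 (0.0845). The MRC2 call was lost without vector replicate 1 (adjusted p = 0.135) or 3 (0.102), and without the libraries labelled nPD-L1 replicate 1 (0.135), 2 (0.239) or 3 (0.137).

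BMP1, the procollagen C-proteinase, was at 421 to 494 scaled reads in vector and 590 to 648 in the libraries labelled nPD-L1, but was not called (log2 fold change 0.41, adjusted p = 0.0754). The collagen receptor DDR1 was at 850 to 1269 and at 1406 to 1611 (log2 fold change 0.55, adjusted p = 0.0584). Both were without overlap. Of the tested handling genes, FURIN, LOXL4, MRC2, BMP1, DDR1 and the protease gene CTSK were higher without overlap. Lower without overlap were MMP14, PCOLCE, SERPINH1 and P4HA2. Among all tested genes 12.0% did so higher and 8.54% lower. LOXL2, another lysyl oxidase, was at 355 to 754 and at 409 to 592, and ITGB1, the shared beta chain of collagen-binding integrins, was at 21472 to 27948 and at 24969 to 26375. Of the collagen-cleaving proteases MMP14, which activates MMP2, was at 41.6 to 45.2 and at 27.7 to 32.4 (log2 fold change -0.52, adjusted p = 0.388). CTSK, the other one tested, went the other way, at 13.6 to 26.2 and at 36.7 to 44.5. It was not called (log2 fold change 0.97, limma adjusted p = 0.160).

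**Figure D5:**
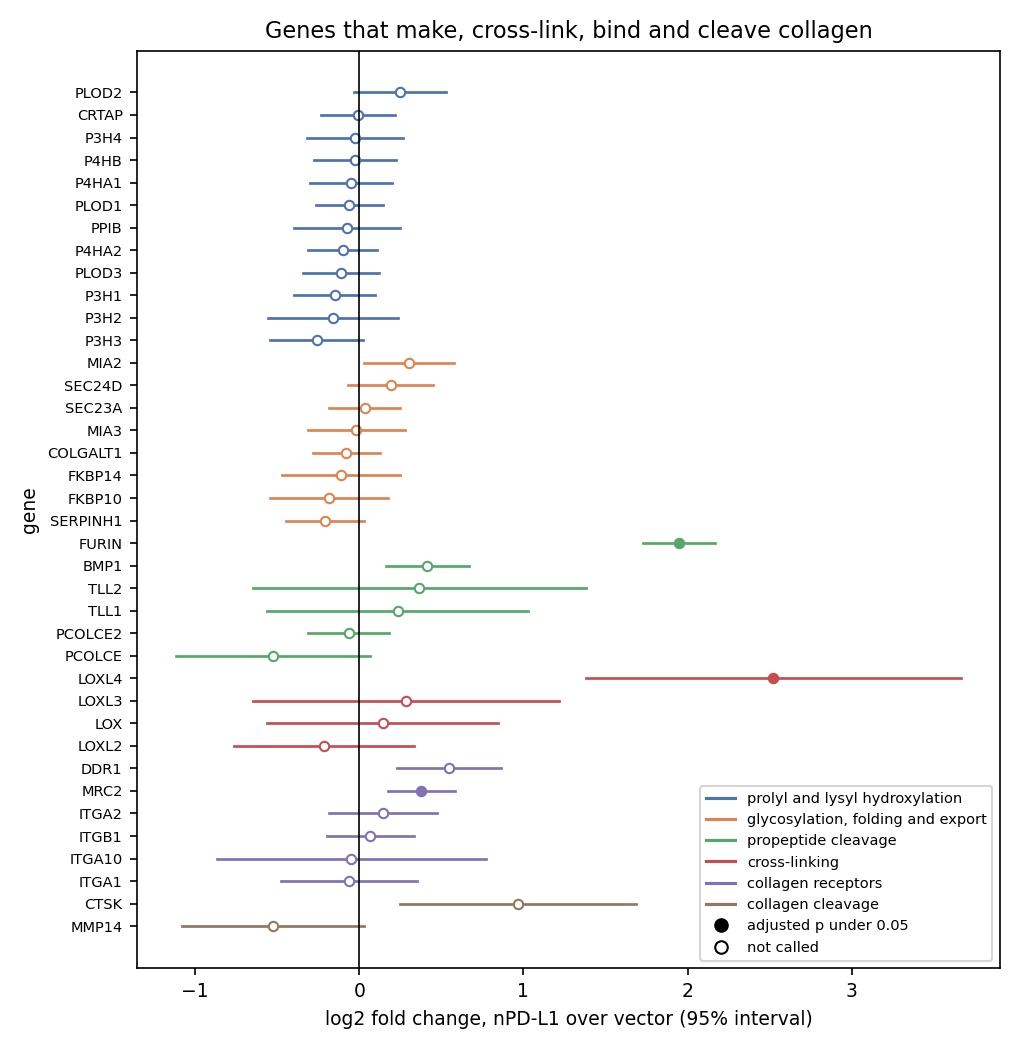
Log2 fold change (libraries labelled nPD-L1 over vector) with its 95% interval for the 38 tested genes that make, cross-link, bind or cleave collagen, colored by step; filled points passed an adjusted p of 0.05. FURIN (1.95), LOXL4 (2.52) and MRC2 (0.38) are filled, while 11 of the 12 hydroxylation genes lie below 0 (6 of 12 without vector replicate 2).

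Markers of cells known to make collagen were examined beside COL1A1. Of 10 listed fibroblast and stellate cell genes 7 had a row, and PDGFRA, PDGFRB, DCN, LRAT and POSTN did not exceed 9.10 scaled reads in any library. The 7 genes together summed to 146 to 232 in vector and 177 to 221 in the libraries labelled nPD-L1, and it came mainly from LUM (99.9 to 182 in all libraries). Only 3 rows, those of LUM and RGS5, passed the filter, so the other listed genes could not be called. Of these 3 rows 0 were called (limma, 0 also at an unadjusted p under 0.05). Among all tested genes 4.04% were called higher and 0.922% lower, so 3 rows are too few to set 0 calls against the background. Endothelial genes summed to 10.1 to 10.4 and 7.72 to 15.2, and blood cell genes to 47.4 to 61.3 and 55.6 to 94.1. In bulk RNA, more cells with a gene and more RNA per cell cannot be told apart.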

How the data were processed

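RNA of PD-L1-knockout cells labelled Hep3B with vector or nPD-L1 (3 libraries each) was sequenced by the authors. The submitters' processing notes name CASAVA, the aligner HISAT2 2.0.5 and the build hg38. The counting tool and its strand setting are not given in the sources used here. The deposited values are a signal, gene counts divided by a factor for each library. In each library 100% of values were whole multiples of the worth of 1 read (tolerance 0.01). Reads were recovered for 4 libraries (17427519 to 22253295 reads on genes). In the remaining 2 the worth of 1 read was too near 1 for this. The authors' own log2 fold changes and p-values were in the table and were not used. 0 columns belonged to samples outside the labels.

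Groups and replicate numbers came from the labels. Genes that reached 10 scaled reads in 3 or more libraries were fitted on log2(value + 1) with limma 3.58.1 (trend and robust moderation, R 4.3.3), 2-sided, with Benjamini-Hochberg adjustment over 15076 genes. A read count test was not the main test because not all libraries gave reads; edgeR 4.0.16 and DESeq2 1.42.0 were run on the 4. On simulated data for this comparison over 15076 genes, the fit recovered 11.9% of genes changed 1.5-fold, 71% changed 2-fold and 95.3% changed 4-fold, and 5.6% of 125 calls were wrong. Gene starts and ends of the 22 tested collagens were identical to GENCODE in hg38. Permutation tests were exact (SciPy 1.17.1). The collagen genes, classes and lists were chosen with earlier results of these data known. Named with every library were called collagens, the 6 of highest level per kilobase and type IV pairs, and the called genes of the handling list. The highest gene of each handling step was named, and given as a range where not called. COL27A1, COL5A1, BMP1, DDR1, PLOD2, SERPINH1, CTSK, PCOLCE and P4HA2 were named after their values were seen. Alternatives changed the scaling, pseudocount, filter, moderation, gene set, length trend, block, tool, call rule and libraries.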

Additional observations from a re-analysis of the deposited data

How the results depend on the processing

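COL1A1 was called higher in 20 of 20 alternatives (log2 fold change 2.67 to 3.08; adjusted p 5.94e-22 to 0.000518). Over 498 gene values of the alternatives, 441 kept direction and call. Collagens called higher were 2 with the replicate block, 3 at an unadjusted p and 1 to 2 with a replicate left out; those called lower were 0 to 1 with a replicate left out. All genes called higher were 927 with the block, 264 with edgeR, 333 with DESeq2 and 254 with limma on the same 4 libraries, 306 with a 2-fold minimum, 1436 at an unadjusted p, and 350 to 793 with a replicate left out. All genes called lower were 258 with the block, 234 with the block and the length trend removed, 61, 85 and 53 with edgeR, DESeq2 and limma on 4 libraries, 68 with a 2-fold minimum, 710 at an unadjusted p, and 77 to 244 with a replicate left out. Handling genes called higher were 5 with the block, 1 with each of edgeR, DESeq2 and limma on 4 libraries, 7 at an unadjusted p and 1 to 5 with a replicate left out. The fibrillar median was 0.056 with no filter. LOXL4 was called in 12 of 19 alternatives and MRC2 in 9 of 20.

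Same-numbered libraries had correlations of -0.01, 0.23 and 0.13, and differently numbered libraries of -0.22 to 0.08. The labels do not give the numbers as pairs, and the main fit had no block. Whether same-numbered libraries share a batch was not tested. All genes called were 927 higher and 258 lower with the block, against 609 and 139 in the main fit. Among collagens the block changed the call of COL27A1.

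Turned signs, none of them called, were as follows. COL4A6 was -0.024 with upper-quartile factors, -0.064 with the length trend removed with or without the block, and -0.19 to 0.23 with a replicate left out. COL4A5 was -0.027, -0.10 and -0.13 to 0.18 in the same order. COL4A2 was 0.10 with edgeR, 0.10 with DESeq2 and 0.14 with limma on 4 libraries, and -0.24 to 0.13 with a replicate left out. COL5A2 was -0.0052 with the length trend removed, and COL7A1 -0.0067, with -0.16 to 0.28 with a replicate left out. COL5A1 was 0.019, 0.013 and 0.069 with edgeR, DESeq2 and limma on 4 libraries, and COL18A1 0.10, 0.094 and 0.13. With a replicate left out, COL5A1 was -0.34 to 0.062, COL18A1 -0.30 to 0.10, COL6A3 -0.16 to 0.61 and COL21A1 -0.15 to 0.10. The cause was not tested. In the simulation 11.9% of the genes changed 1.5-fold were recovered. It gave 125 calls, against 609 higher and 139 lower in the data, so the reach in the data can differ. Genes with a small standard error were called at smaller changes, such as MRC2 (log2 fold change 0.38, SE 0.09).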

Other observations

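Genes around COL1A1 were examined after its values were seen. Within 300 kb of the gene there were 25 rows, of which 14 were tested and 0 called (limma; smallest adjusted p = 0.0794; against 4.04% of all tested genes called higher and 0.922% lower). At an unadjusted p under 0.05 there were 3 higher and 1 lower (28.6% together), against 9.53% of all tested genes higher and 4.71% lower. SGCA, the alpha-sarcoglycan gene of muscle, was at 2.02, 10.2 and 3.12 scaled reads in vector and at 15.1, 29.3 and 19.3 in the libraries labelled nPD-L1 (log2 fold change 2.05). The others higher at an unadjusted p under 0.05 were DLX4 (49.9 to 63.6 against 83.2 to 100.1, log2 fold change 0.67) and PPP1R9B (1341 to 1714 against 1832 to 2216, 0.37). The lower gene was RSAD1 (1701 to 1898 against 1453 to 1609, -0.23). ITGA3, a laminin-binding integrin chain, was at 7909 to 12906 in vector and 9979 to 11977 in the libraries labelled nPD-L1 (log2 fold change 0.03). The antisense gene COL4A2-AS1 shares 5605 bases of gene span, introns included, with COL4A2. COL4A2-AS1 was at 1.04 to 2.02 scaled reads in vector and at 6.07 to 8.68 in the libraries labelled nPD-L1, below the filter. Whether exons of both genes overlap there was not tested, so how far their reads can be told apart is not known.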
